A study of Mus musculus with 25 samples.

Results

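The sites described here are the peaks of accessible chromatin that were more open in astrocytes transduced with Neurog2 under every condition tested, that is with and without added Hmgb2 and in both growth factor cultures. They were chosen by their own accessibility values. A site had to exceed the Control of its own culture by at least 0.5 on the log2 scale, in group means, in each of 4 settings: Neurog2 in EGF+bFGF culture, Neurog2+Hmgb2 in EGF+bFGF culture, Neurog2 in bFGF culture and Neurog2+Hmgb2 in bFGF culture. Of 45672 peaks, 728 met this rule, after 1 mitochondrial peak and 29 peaks that share the coding sequence of Neurog2 or Hmgb2 were left out. The 4 differences from Control are therefore given as a description, without a test, and only sequence, position and the Hmgb2 libraries, which had no part in the choice, are read as further information.

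The study asked how Hmgb2 and the growth factor environment shape the conversion of astrocytes to neurons. Astrocytes were grown from the cerebral cortex of wild-type C57BL/6J mice, labelled as grey matter, while the study's methods name white matter. The animals were 5 to 6 days old per the growth protocol and 6 to 8 days old per the design text. Cells were expanded in medium with EGF and bFGF (10 ng/ml each) or with only bFGF at that dose. They received retroviruses, which express their genes in cells that divide, and 48 h later fluorescent cells were sorted for ATAC-seq, in which a transposase cuts accessible DNA. In each culture the groups were Neurog2, Neurog2+Hmgb2, Hmgb2 and Control (a GFP virus), with the genes driven by the CAG promoter. Each group held 3 libraries, except Hmgb2 in EGF+bFGF culture with 4, which gives 25 libraries. Whether the libraries within a group stem from different animals is not stated, so that p-values measure the spread between libraries, which may be technical. Values are rlog values, a log2-like scale on which weakly covered peaks are pulled towards the mean. They hold no counts, so that the depth of the libraries is unknown.

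Neurog2 is a proneural transcription factor of the basic helix-loop-helix family, which directs progenitors of the dorsal forebrain to become neurons. Such factors pair with E proteins and bind short sequences called E-boxes, CANNTG, in which the central pair of bases differs between factors. For Neurog2 and its relatives a preferred form is CAGATG, which reads CATCTG on the opposite strand. Neurog2 is regarded as a pioneer factor, able to bind DNA in closed chromatin, and Hmgb2 is an abundant protein that binds and bends DNA without a marked sequence preference.

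To show what these sites look like, 200 bases about the peak centre are given for 6 of them, from the plus strand of GRCm38.p6 (the assembly also called mm10), with CAGATG in either orientation in capitals. The first 4 illustrate how the motif occurs in these windows. There was 1 copy each near Gm8797, Celf2 and Ppfibp2, and a tandem array with 8 copies near Fscb. In the central 300 bp of the peak the Gm8797 and Ppfibp2 sites held 2 copies each, the Celf2 site 1 and the Fscb site 11. The Neurod4 window has none in these 200 bases, while the central 300 bp of its peak held 1 copy. The last window, in an intron of 1700017N19Rik, is a purine-rich repeat without any E-box.
Gm8797 site, chr3:5754906-5755105: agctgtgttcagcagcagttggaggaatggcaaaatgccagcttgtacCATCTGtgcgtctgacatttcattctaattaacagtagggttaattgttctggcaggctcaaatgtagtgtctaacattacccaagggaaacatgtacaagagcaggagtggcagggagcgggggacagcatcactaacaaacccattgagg
Celf2 site, chr2:8498668-8498867: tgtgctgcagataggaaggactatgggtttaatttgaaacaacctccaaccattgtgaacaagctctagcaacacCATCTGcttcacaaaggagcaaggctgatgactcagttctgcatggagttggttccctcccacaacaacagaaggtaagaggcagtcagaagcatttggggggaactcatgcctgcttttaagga
Ppfibp2 site, chr7:107745108-107745307: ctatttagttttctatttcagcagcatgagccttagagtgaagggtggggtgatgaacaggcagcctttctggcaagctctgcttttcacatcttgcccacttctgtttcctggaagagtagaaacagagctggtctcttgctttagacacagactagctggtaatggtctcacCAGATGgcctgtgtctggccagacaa
Fscb site, chr12:64570270-64570469: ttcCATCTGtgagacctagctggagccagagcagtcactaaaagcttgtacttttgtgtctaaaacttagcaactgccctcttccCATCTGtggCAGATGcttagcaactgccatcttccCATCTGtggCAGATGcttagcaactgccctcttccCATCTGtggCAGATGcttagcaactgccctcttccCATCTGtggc
Neurod4 site, chr10:130263346-130263545: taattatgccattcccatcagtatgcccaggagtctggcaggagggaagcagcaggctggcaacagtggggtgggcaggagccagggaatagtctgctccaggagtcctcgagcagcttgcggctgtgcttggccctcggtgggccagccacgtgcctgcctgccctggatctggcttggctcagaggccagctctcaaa
1700017N19Rik site, chr10:100617436-100617635: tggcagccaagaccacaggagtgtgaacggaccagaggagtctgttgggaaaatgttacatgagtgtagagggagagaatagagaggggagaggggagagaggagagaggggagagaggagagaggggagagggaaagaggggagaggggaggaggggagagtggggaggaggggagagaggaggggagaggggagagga

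The labels of the groups were first checked at the transduced genes. At the peak over the coding exon of Neurog2 (chr3:127633550-127634928) the 12 libraries with Neurog2 virus had rlog values of 10.60 to 16.06. The lowest of them, 10.60, was Neurog2 replicate 2 in bFGF culture, which also had the lowest correlation with its own group over kept peaks (mean r = 0.935, against at least 0.946 for the other libraries). Among the 13 libraries without Neurog2 virus, 4 lay above 10 at this peak: Hmgb2 replicate 1 in EGF+bFGF culture with 12.32, Hmgb2 replicate 1 in bFGF culture with 12.70, and Control replicates 1 and 2 in EGF+bFGF culture with 10.32 and 10.49. The other 9 had 6.76 to 8.43. At 1 of the peaks that share the coding sequence of Hmgb2, named after its values were seen, the libraries with Hmgb2 virus had 6.81 to 11.48, against 4.17 to 6.15 in those without. At another such peak Hmgb2 replicate 4 in EGF+bFGF culture had 8.53, within the 8.11 to 8.60 of the libraries without Hmgb2 virus. The source of the Neurog2 signal in the 4 libraries was not tested. The 4 libraries were kept under their labels, and the number of sites, the E-box share and the Hmgb2 differences are given with and without them. Promoters of 5 of 7 astrocyte markers had a peak, with rlog values of 5.20 to 7.00 in the Control groups, against 0 of 4 endothelial markers and 1 of 4 microglial markers (Csf1r, 4.11 and 4.17). Promoters of 3 of 4 fibroblast (3.84 to 5.93), 3 of 4 neuronal (5.24 to 6.59) and 3 of 4 oligodendrocyte lineage markers (4.37 to 6.36) also had a peak. The range of the neuronal markers lay within that of the astrocyte markers. Over all promoter peaks the median in Control libraries was 5.81. The promoters of Aldoc and S100b, both astrocyte markers, had no peak. In these bulk samples, a site open in more cells and a site more open in each cell cannot be told apart.

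Across the 728 sites, the library medians did not overlap between libraries with and without Neurog2 virus, which the choice of the sites favours. The median rlog value over the sites was 4.66 to 4.93 in Neurog2 and 4.65 to 5.02 in Neurog2+Hmgb2 libraries of EGF+bFGF culture, and 4.51 to 4.78 in Neurog2 and 4.70 to 4.87 in Neurog2+Hmgb2 libraries of bFGF culture. It was 3.76 to 4.04 in Hmgb2 and 3.86 to 4.03 in Control libraries of EGF+bFGF culture, and 3.95 to 4.10 in Hmgb2 and 3.86 to 3.95 in Control libraries of bFGF culture. The lowest of the 12 libraries with Neurog2 virus was again Neurog2 replicate 2 in bFGF culture. Over all kept peaks the library medians lay between 4.56 and 4.67, so that the median over the sites exceeded that over all kept peaks in 11 of the 12 libraries with Neurog2 virus and was below it in the 13 libraries without.

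**Figure D1:**
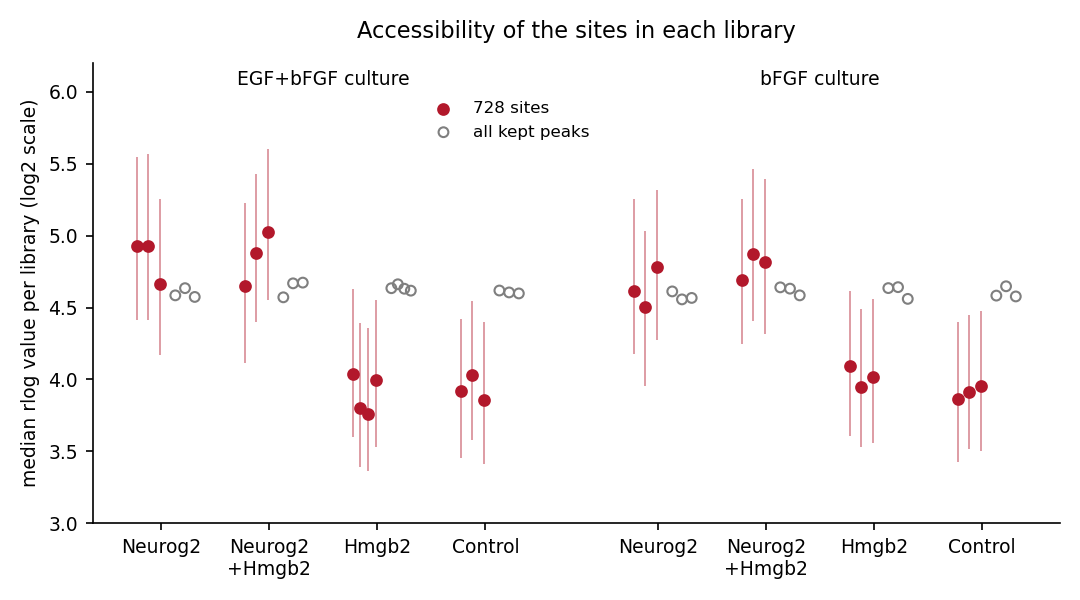
Median rlog value (log2 scale, y axis) of each library by group, with EGF+bFGF culture on the left and bFGF culture on the right. Red points are medians over the 728 sites with lines from the first to the third quartile, and open grey points are medians over all kept peaks. The 12 libraries with Neurog2 virus sit between 4.51 and 5.02, and the 13 others between 3.76 and 4.10.

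The 4 settings contributed unequally to the rule. The limit of 0.5 was passed by 2771 peaks for Neurog2 and 2876 for Neurog2+Hmgb2 in EGF+bFGF culture, against 1700 for Neurog2 and 2481 for Neurog2+Hmgb2 in bFGF culture. Of the 2020 peaks past it in both EGF+bFGF settings, 36.0% passed in bFGF culture as well, and of the 1162 peaks past it in both bFGF settings, 62.7% passed in EGF+bFGF culture. At the 728 sites the difference from Control had a median of 0.87 for Neurog2 and 0.87 for Neurog2+Hmgb2 in EGF+bFGF culture, 0.66 for Neurog2 in bFGF culture and 0.84 for Neurog2+Hmgb2 in bFGF culture, where the medians over all kept peaks were -0.02, -0.01, 0.01 and 0.00. Neurog2 alone in bFGF culture was the smallest of the 4 differences at 458 sites (62.9%). Without the 4 libraries with Neurog2 signal but no Neurog2 virus, which leaves 1 Control library in EGF+bFGF culture, 809 peaks met the rule, and 696 of the 728 sites were among them. All 4 comparisons share the Control libraries of their culture.

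The study called more accessible sites with DESeq2 on counts. Here a site was called at an adjusted p under 0.05 (limma, Benjamini-Hochberg over all peaks) and a difference over 1 in rlog values. Since rlog pulls weakly covered peaks towards the mean, the counts are not comparable with those of the study. In all, 235 of the 728 sites were called for Neurog2 in EGF+bFGF culture, where 0.766% of all peaks were called. For Neurog2+Hmgb2 in EGF+bFGF culture 221 sites were called (0.698% of all peaks), for Neurog2 in bFGF culture 48 (0.131%) and for Neurog2+Hmgb2 in bFGF culture 166 (0.429%). Since the same differences chose the sites, nothing is read from these counts. Without Neurog2 replicate 2 the count for Neurog2 in bFGF culture was 95. Without Control replicate 1 it was 31, as it was when only the Neurog2 and Control libraries of bFGF culture entered the fit. Without Neurog2+Hmgb2 replicate 1 or 3 the count for Neurog2+Hmgb2 in EGF+bFGF culture was 338 or 146.

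A library left out of the choice gave a measure of its own. For each library with Neurog2 virus, the sites were chosen again from the others, and its difference from its Control mean was taken at those sites. In the 6 libraries of EGF+bFGF culture the median difference was 0.67 to 1.09, and 97.5% to 100.0% of the sites were above 0, against 47.0% to 50.0% of all kept peaks. In the 3 Neurog2+Hmgb2 libraries of bFGF culture it was 0.74 to 0.94, with 99.3% to 99.9% of sites above 0, against 48.9% to 50.8% of all kept peaks. In Neurog2 libraries of bFGF culture it was 0.61 for replicate 1, 0.35 for replicate 2 and 0.79 for replicate 3. Above 0 were 98.8%, 87.4% and 99.8% of sites, against 49.1% to 51.5% of all kept peaks. The limit of 0.5 was reached by 63.3%, 33.9% and 84.3% of sites in these libraries, against 6.49%, 13.3% and 5.7% of all kept peaks. In EGF+bFGF culture the limit was reached by 70.1% to 99.5% of sites, against 5.05% to 9.81% of all kept peaks. In Neurog2+Hmgb2 libraries of bFGF culture it was reached by 80.9% to 90.7% of sites, against 7.2% to 8.05% of all kept peaks. Each left-out library thus had a median difference above 0, with that of Neurog2 replicate 2 in bFGF culture the smallest. The Control means stayed part of the choice here, which favours a positive difference.

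**Figure D2:**
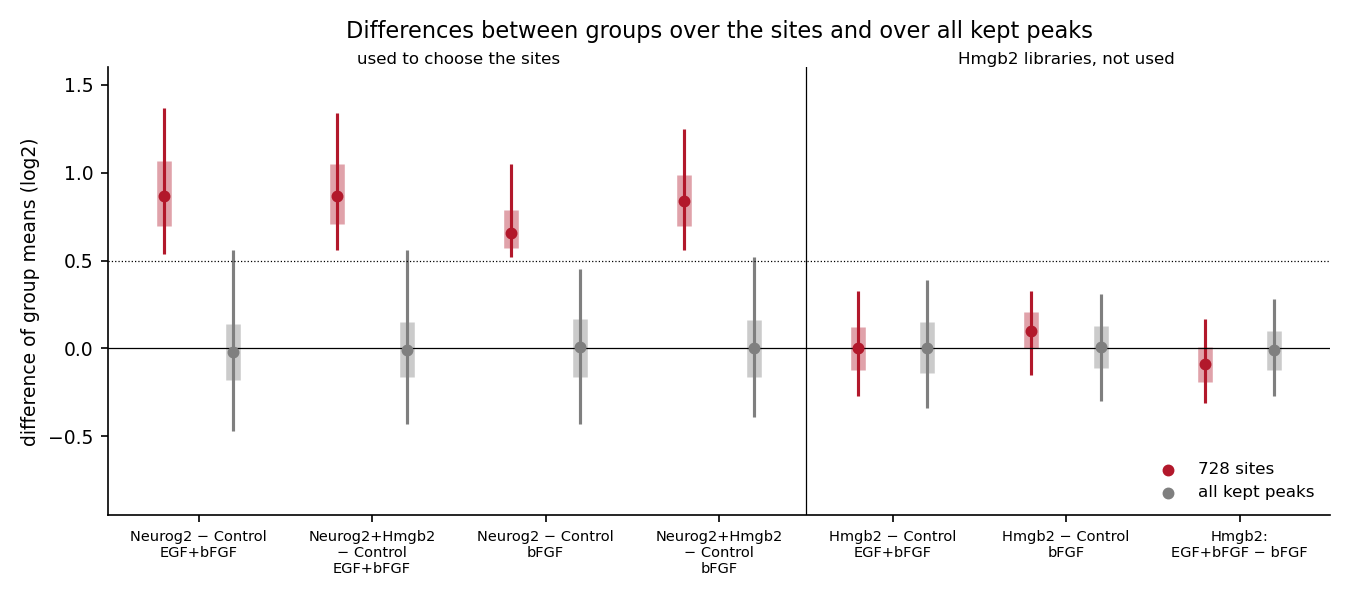
Difference of group means on the log2 scale (y axis) for 7 comparisons, with a point at the median, a thick bar over the middle 50% and a thin line from the 5th to the 95th percentile, for the 728 sites (red) and all kept peaks (grey). The 4 comparisons left of the vertical line chose the sites, with medians of 0.66 to 0.87 and the limit of 0.5 dotted. In the 3 comparisons of Hmgb2 libraries on the right the medians of the sites were between -0.09 and 0.10.

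The Hmgb2 libraries had no part in the choice. In EGF+bFGF culture the median over the sites was 3.90 in Hmgb2 and 3.95 in Control group means, and the difference, Hmgb2 minus Control, had a median of 0.00 with 366 of 728 sites above 0 (all kept peaks: median 0.00, 49.8% above 0). In bFGF culture the medians were 4.03 in Hmgb2 and 3.90 in Control, with a median difference of 0.10 and 549 of 728 sites (75.4%) above 0, against a median of 0.01 and 52.2% for all kept peaks. A low Control mean helps a site to meet the rule, so that both differences are biased upwards. Without Hmgb2 replicate 1 of each culture, the libraries with signal at Neurog2, the median differences were -0.04 in EGF+bFGF and 0.06 in bFGF culture. Without these and Control replicates 1 and 2 of EGF+bFGF culture they were 0.04 and 0.06.

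No single site passed the test in the Hmgb2 libraries. For Hmgb2 minus Control in EGF+bFGF culture, 0 of 728 sites were called in either direction with limma at an adjusted p under 0.05, where 0.00219% of all peaks (1 peak) were called higher and 0% lower, and 22 sites were higher and 5 lower at an unadjusted p under 0.05 (3.71% of sites, against 9.17% of all peaks). In bFGF culture 0 sites were called, with 0.00219% of all peaks (1 peak) higher and 0% lower, and 21 sites were higher and 1 lower at an unadjusted p under 0.05 (3.02% of sites, against 3.99% of all peaks). The median SE of such a difference was 0.181 in EGF+bFGF culture and 0.193 in bFGF culture, which sets what these libraries could detect at a single site. The count over the sites was 0 in both cultures under each alternative run, also without the Hmgb2 and Control libraries with signal at Neurog2.

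The comparison of the Hmgb2 libraries of the 2 cultures is free of the choice on both sides. The group means had medians over the sites of 3.90 in EGF+bFGF culture and 4.03 in bFGF culture, and the difference, EGF+bFGF minus bFGF, had a median of -0.09, with 194 of 728 sites (26.6%) above 0, against a median of -0.01 and 48.1% for all kept peaks. With the library medians of 3.76 to 4.04 in EGF+bFGF and 3.95 to 4.10 in bFGF culture, the groups overlapped. The median difference was -0.10 without replicate 1 of both groups. Of the 728 sites, 0 were called in either direction (limma, adjusted p under 0.05), as were 0% of all peaks, and 2 sites were higher and 11 lower at an unadjusted p under 0.05 (1.79% of sites, against 3.44% of all peaks). The 3 sites with the smallest p had unadjusted limma p-values of 0.00416 to 0.0116 and an adjusted p of 1. They lay near Nt5e, which encodes an ecto-nucleotidase (difference -0.49, SE 0.158), near Rps24, a ribosomal protein gene (-0.48, SE 0.175), and in an intron of Atp7b, a copper transporter gene, with Ccdc70 as the nearest start site (0.42, SE 0.156).

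At the Nt5e site the Hmgb2 libraries had 3.06, 2.96, 2.92 and 2.77 in EGF+bFGF culture, against 3.54, 3.25 and 3.47 in bFGF culture. Since the site was named for its small p in this comparison, these values are a description. Over the whole set, all 12 libraries with Neurog2 virus lay above all 7 Hmgb2 libraries at 370 of 728 sites (50.8%), against 1.42% of all peaks. Since the values of the libraries with Neurog2 virus chose the sites, this share is a description.

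Hmgb2 added to Neurog2 was set against Neurog2 alone as a description. The difference, Neurog2+Hmgb2 minus Neurog2, had a median of -0.01 over the sites in EGF+bFGF culture. Above 0 were 353 of 728 sites (48.5%), against 51.5% of all kept peaks. In bFGF culture the difference had a median of 0.15, with 594 of 728 (81.6%) above 0, against 50.2% of all kept peaks. Both groups chose the sites, and the fewest peaks passed the limit for Neurog2 alone in bFGF culture, so that no test is given. The libraries of these groups overlapped in both cultures, with site medians of 4.70 to 4.87 for Neurog2+Hmgb2 against 4.51 to 4.78 for Neurog2 in bFGF culture.

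Without Neurog2 virus, the sites were more often found among the less accessible peaks. This is partly built in, since a low Control mean helps a site to meet the rule. Peaks were also called per sample and merged, so that a peak called only in libraries with Neurog2 virus can be a site. In the Hmgb2 libraries of EGF+bFGF culture, whose values did not enter the choice, 48.1% of the sites lay in the lowest quartile of all kept peaks and 3.85% in the top quartile. In those of bFGF culture 41.5% lay in the lowest and 3.16% in the top quartile. Promoter peaks had high values, with a median of 5.81 in Control libraries over 15521 peaks, and few sites were promoters. Among kept peaks outside promoters, the 693 sites outside promoters were spread more evenly, with 35.1% in the lowest and 11.4% in the top quartile for Hmgb2 in EGF+bFGF culture, and 29.7% and 14.4% in bFGF culture.

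The sites were distal. Only 35 of 728 (4.81%) lay at promoters, that is, no more than 3 kb from a TSS (the transcription start site of a coding gene), against 34.0% of all kept peaks. Gene bodies held 359 (49.3%, against 35.8%) and intergenic regions 334 (45.9%, against 30.2%). By the centre of the peak, 351 sites lay in introns, 342 between genes, 24 in noncoding exons and 11 in coding exons. The median distance to the nearest TSS was 59.3 kb, against 15.4 kb for all kept peaks and 42.2 kb for kept peaks outside promoters, where the sites outside promoters had a median of 64.6 kb. In all, 289 sites (39.7%, against 18.4% of kept peaks) lay over 100 kb from a TSS and 43 (5.91%, against 2.55%) over 500 kb.

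The median width of the sites was 500.5 bp, against 511 bp for all kept peaks and 428 bp for kept peaks outside promoters, and 90% of the sites were between 276 and 951 bp wide. Peaks of 250 bp or less made up 2.88% of the sites and 8.99% of all kept peaks. The median GC content was 50.3%, against 52.0% for all and 49.0% for kept peaks outside promoters. Sites were found on every autosome and on X, with none among the 52 kept peaks of the Y chromosome. Their share of kept peaks was lowest on chromosome 19 (8 of 1208, 0.66%) and highest on chromosome 10 (56 of 2337, 2.4%), with 1.6% overall.

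The sequence of the sites was set apart by E-boxes. In the central 300 bp, 593 of 728 sites (81.5%) held at least 1 CAGATG or, read on the opposite strand, CATCTG, against 25.6% of all kept peaks and 32.0% of kept peaks outside promoters, where the 693 sites outside promoters had 81.4%. The sites held 4.51 copies per kb in this window, against 1.04 for all and 1.32 for kept peaks outside promoters. An E-box of any kind, CANNTG, was found in 98.4% of sites, 75.9% of all and 83.3% of kept peaks outside promoters. With the whole peak searched, 92.3% of sites and 39.9% of all kept peaks held CAGATG, and in the central 150 bp 58.1% and 14.8% did. Among the sites chosen without the 4 libraries with Neurog2 signal, the share in the central 300 bp was 79.9%. The motif search was a description, as no test was run, and a match does not show that Neurog2 bound there.

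Other E-boxes were counted in the same window. The palindrome CAGCTG, also bound by many proneural and myogenic factors, was found in 44.8% of sites, against 24.4% of all and 26.9% of kept peaks outside promoters. The palindrome CATATG was found in 11.5% of sites, against 4.33% and 5.79%. CACGTG, the form bound by Myc and the clock factors, was found in 4.67% of sites, against 5.29% and 4.27%. The form CAATTG was not counted, and 5 further forms were each found in 16.8% to 26.1% of sites, against 13.3% to 16.1% of all and 11.5% to 20.7% of kept peaks outside promoters. Of 135 sites without CAGATG in the central 300 bp, 79 had it elsewhere in the peak, 92 had CAGCTG and 13 had CATATG in the central 300 bp, and 12 had no E-box of any kind there. Together 685 sites had CAGATG or CAGCTG, and 234 had both.

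Motifs of other factor classes were searched for comparison. The AP-1 motif TGANTCA, bound by Fos and Jun proteins, was found in 20.3% of sites, against 26.2% of all and 35.3% of kept peaks outside promoters. The motif GGAATG of TEAD factors was found in 16.3%, against 20.7% and 25.2%. The motif TTGGCA of the NFI factors, which act in glia, was found in 34.5% of sites, against 21.7% and 27.1%, and the ACAAAG motif of SOX factors in 27.2%, against 21.7% and 26.4%. The octamer ATTTGCAT of POU factors was found in 2.2% of sites, against 1.91% of all and 2.38% of kept peaks outside promoters. The GC box GGGCGG, common in CpG island promoters, was found in 6.59%, against 26.2% and 9.79%. All motifs were searched on both strands.

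Many sites carried more than 1 copy of CAGATG. In the central 300 bp, 310 sites (42.6%) had 1 copy, 213 (29.3%) had 2 and 70 (9.62%) had 3 or more, where 25.5%, 5.5% and 0.989% of kept peaks outside promoters had these numbers. Between neighbouring copies in a site the median spacing was 61 bp, with the middle 50% between 29 and 102 bp. As a description, the smallest of the 4 differences had a median of 0.60 at sites without a copy and 0.63 at sites with 3 or more. In the Hmgb2 libraries, sites with 3 or more copies had lower levels, with a median rlog value of 3.65 in EGF+bFGF and 3.73 in bFGF culture, against 4.11 and 4.21 at sites without a copy.

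The bases that flank CAGATG were also tallied. Of the 979 copies in the sites, 60.1% were followed by G, against 35.8% of the 10933 copies in other kept peaks outside promoters, and 5.82% were preceded by T, against 17.0%. The form GCAGATGG made up 22.5% of copies in the sites and 11.0% elsewhere, ACAGATGG 22.4% and 10.9%, and TCAGATGT 1.12% and 3.96%.

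CAGATG lay close to the centre of the sites. At 0 to 50 bp from the centre, on the side of higher coordinates, the sites held 6.4 copies per kb, against 1.42 in other kept peaks outside promoters, and at 450 to 500 bp from the centre 0.687 copies per kb, against 0.822. Of the 593 sites with a copy in the central 300 bp, 58.2% had the nearest within 50 bp of the centre, and the median distance was 41 bp, against 42.7% and 60 bp for the 9047 other kept peaks outside promoters with a copy. More than 250 bp from the centre, the density was 0.687 to 1.24 copies per kb at the sites and 0.815 to 0.918 in the other peaks.

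**Figure D3:**
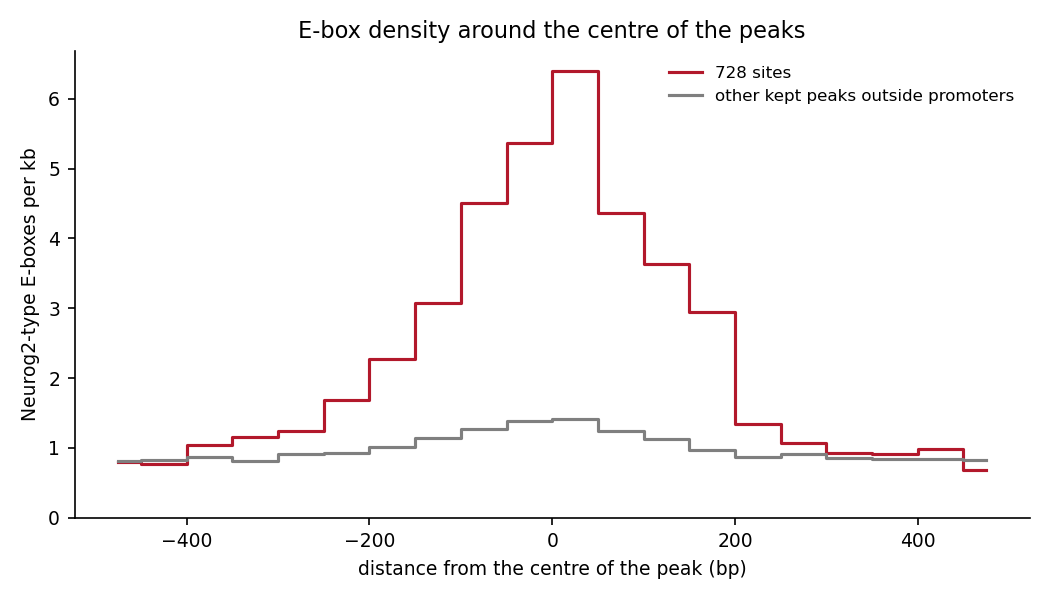
Copies of the Neurog2-type E-box per kb (y axis) by distance from the peak centre (x axis, bp, bins of 50 bp), for the 728 sites (red) and other kept peaks outside promoters (grey). The density at the sites reached 6.4 per kb beside the centre, against 1.42 in other peaks, and was 0.687 against 0.822 at the right edge.

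The share of peaks with the motif went up with the response before the limit of the rule was reached. Among kept peaks outside promoters, CAGATG was found in 16.6% of those whose smallest of the 4 differences was under -0.5, in 29.5% of those from -0.25 to 0, in 50.0% from 0 to 0.25 and in 69.6% from 0.25 to 0.5, just below the limit. Within the sites it was 81.0% from 0.5 to 0.75, 84.0% from 0.75 to 1, and 76.9% of the 26 sites at 1 or more. CAGCTG had a flatter course, with 15.1% of peaks in the lowest and 50.0% in the highest class. AP-1 motifs were found in 36.4% of peaks under -0.5, 40.6% of peaks from -0.5 to -0.25, 20.8% from 0.5 to 0.75 and 26.9% at 1 or more.

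**Figure D4:**
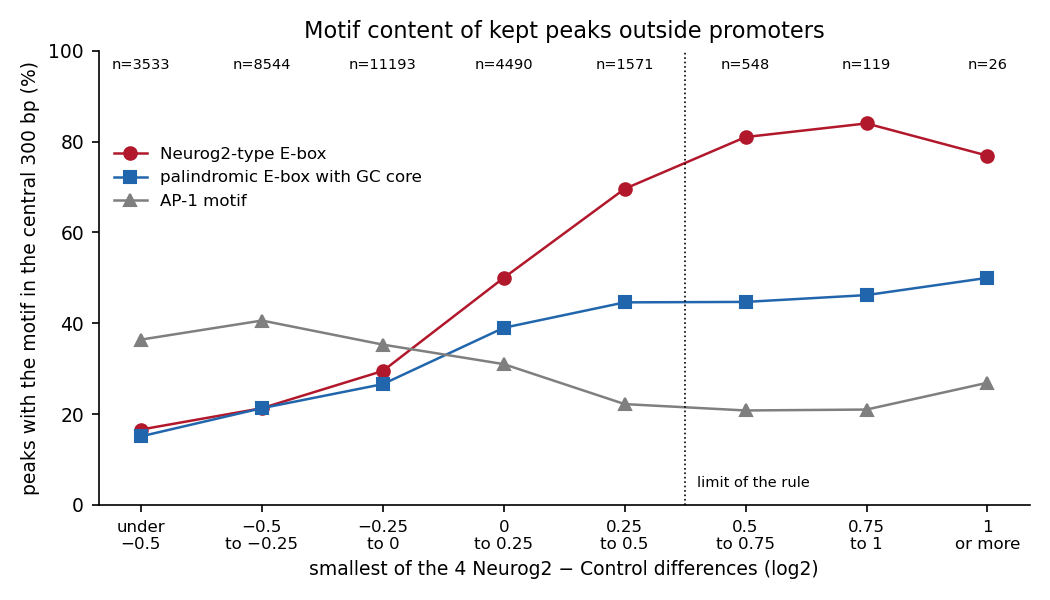
Share of kept peaks outside promoters with a motif in the central 300 bp (y axis, %) by the smallest of the 4 differences from Control (x axis, log2), for the Neurog2-type E-box (red circles), the palindromic E-box with a GC core (blue squares) and the AP-1 motif (grey triangles). The number of peaks stands above each class, and the dotted line marks the limit of 0.5. The Neurog2-type E-box was found in 16.6% of peaks in the lowest class and 69.6% of peaks just below the limit.

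The strongest sites were ranked by the smallest of their 4 differences, taking 1 site per nearest protein-coding gene. The highest value, 1.57, belonged to an intergenic site 3.8 kb from the predicted gene Gm8797 (chr3:5754589-5755421). Its rlog values were 6.87, 7.09 and 6.51 in Neurog2 and 6.65, 6.54 and 6.90 in Neurog2+Hmgb2, against 5.08, 4.86 and 4.63 in Control libraries of EGF+bFGF culture. In bFGF culture they were 6.60, 6.06 and 6.74 in Neurog2 and 6.17, 6.79 and 6.44 in Neurog2+Hmgb2, against 4.86, 4.74 and 5.09 in Control. All libraries with Neurog2 virus lay above all others, and the 7 Hmgb2 libraries had 4.46 to 5.32, against 4.63 to 5.09 in Control.

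The second highest, 1.29, lay 1102.3 kb from the start of Celf2, which encodes an RNA-binding regulator of splicing with a role in neurons (chr2:8498475-8499059, intergenic). It had 5.19, 5.39 and 4.98 in Neurog2 and 5.25, 5.14 and 5.59 in Neurog2+Hmgb2, against 4.01, 4.19 and 3.50 in Control libraries of EGF+bFGF culture. The values in bFGF culture were 4.85, 5.11 and 4.99 in Neurog2 and 5.32, 5.32 and 5.04 in Neurog2+Hmgb2, against 3.78, 3.56 and 3.74 in Control. Groups with Neurog2 virus and Control did not overlap in either culture. Hmgb2 minus Control was -0.10 in EGF+bFGF culture (SE 0.170, limma adjusted p = 0.866) and 0.41 in bFGF culture (SE 0.182, limma adjusted p = 1).

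Next came a site in an intron of 1700017N19Rik (1.21, chr10:100617257-100617813), and a site in an intron of Ppfibp2, which encodes a liprin, 2.0 kb from its start site (1.17, chr7:107744937-107745478). At the Ppfibp2 site the libraries of a group spread widely. It had 6.22, 6.14 and 5.29 in Neurog2 and 4.54, 5.75 and 5.94 in Neurog2+Hmgb2, against 4.08, 4.42 and 4.03 in Control libraries of EGF+bFGF culture, so that Neurog2+Hmgb2 replicate 1 was the closest to Control. Values of bFGF culture were 5.61, 4.79 and 5.37 in Neurog2 and 5.28, 5.57 and 5.36 in Neurog2+Hmgb2, against 4.11, 4.07 and 4.09 in Control.

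Neurod4, a proneural factor of the same family that is activated downstream of Neurog2, had the site with the fifth largest value, 1.16, at 16.6 kb from its start site (chr10:130263208-130263682). It had 5.91, 5.78 and 5.21 in Neurog2 and 4.75, 5.39 and 5.61 in Neurog2+Hmgb2, against 4.02, 4.20 and 3.84 in Control libraries of EGF+bFGF culture. For bFGF culture the values were 4.93, 4.90 and 5.65 in Neurog2 and 4.87, 5.51 and 5.44 in Neurog2+Hmgb2, against 3.90, 4.30 and 3.81 in Control. In every library with Neurog2 virus the site was more open than in any Control library, and the Hmgb2 libraries had 3.87 to 4.25.

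The other 7 of the 12 strongest had smallest differences of 1.09 to 1.16. Those near Ythdc2, an RNA helicase gene of the germ line (187.5 kb), Fscb, a sperm gene (95.4 kb), Gm5485 (39.6 kb) and Ppp1r3a, which encodes a glycogen-targeting subunit of protein phosphatase (345.0 kb), were intergenic. A site in an intron of the kinase gene Nek10 had 6 copies of CAGATG in its central 300 bp, and the Fscb site had 11, the tandem array shown above. A site in an intron of Dpyd had Ptbp2, a splicing regulator of neurons, as the nearest start site, at 371.0 kb. The last, 927.6 kb from Ncam2, a neural cell adhesion gene, had 5.29, 4.96 and 4.62 in Neurog2 and 5.35, 5.02 and 5.49 in Neurog2+Hmgb2, against 3.80, 4.03 and 3.71 in Control libraries of EGF+bFGF culture. Of the 12, 11 had CAGATG in the central 300 bp, and the site in 1700017N19Rik had it elsewhere in the peak. The nearest gene need not be the gene a site acts on, and 4 of the 12 lay over 300 kb from any coding start.

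**Figure D5:**
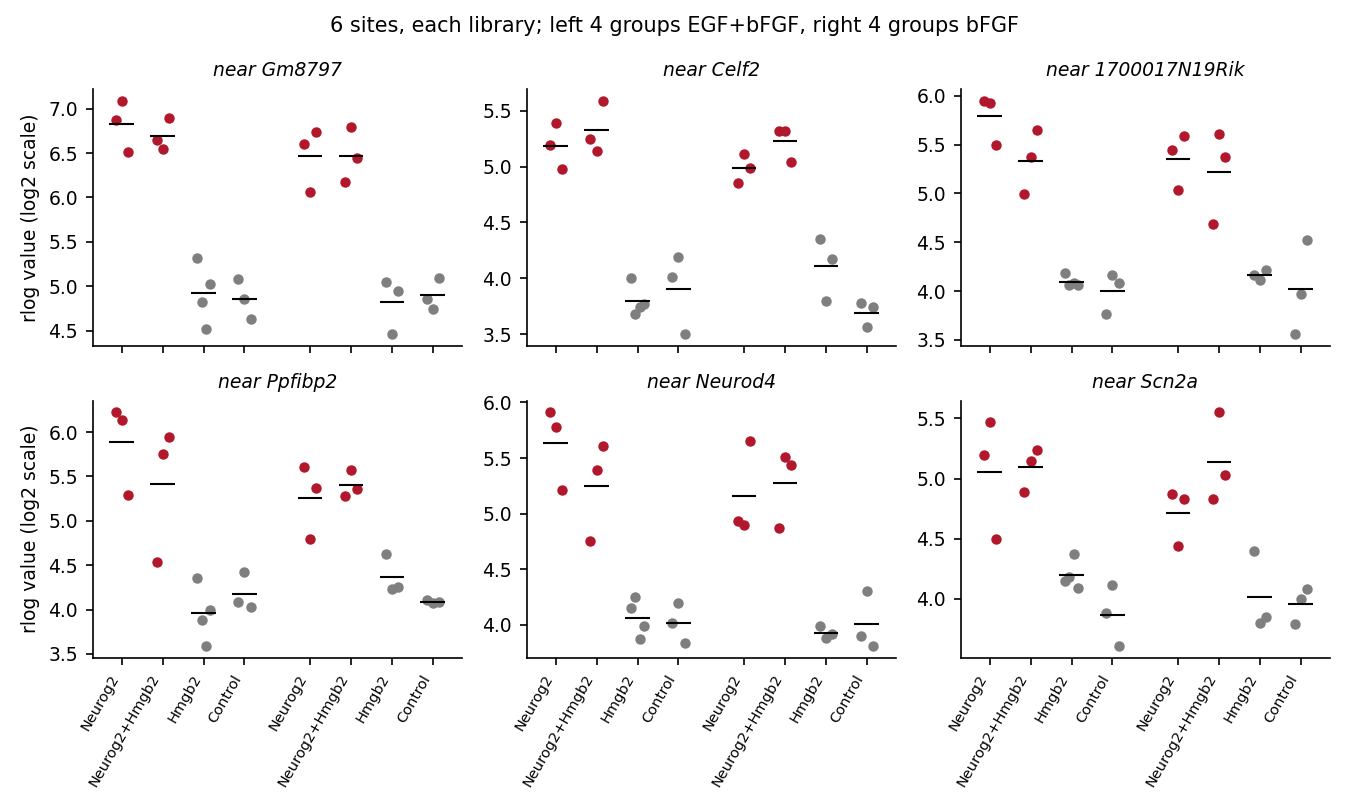
Rlog value (y axis, log2 scale) of each library at 6 sites, with red points for libraries with Neurog2 virus, grey points for Hmgb2 and Control libraries, and black lines at group means. The left 4 groups of each panel are EGF+bFGF culture and the right 4 bFGF culture. At the site near Gm8797 all libraries with Neurog2 virus had 6.06 or more, and the others 5.32 or less.

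The sites were scattered over many genes. They had 656 different nearest genes, of which 595 had 1 site, 52 had 2 and 9 had 3 or more. Named after their values were seen, the 9 were Grm7, a metabotropic glutamate receptor gene, and B230118H07Rik with 4 sites each, and Cdh2 (N-cadherin), Gse1, Ifng (interferon gamma), Kctd12, Lzts1, Rora (a nuclear receptor) and Tgfbr2 (a TGF-beta receptor) with 3 each. These genes differed in how many kept peaks they were nearest to, with 5 for Ifng, 15 for Grm7 and 29 for Gse1. The median gap to the nearest other site was 1.04 Mb.

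A minority of the sites lay close together. Another site was found within 10 kb of 24 sites (3.3%), within 50 kb of 66 (9.07%) and within 100 kb of 91 (12.5%). Of the peaks next to a site and within 10 kb of it, 7.62% (26 of 341) were sites themselves, against 1.22% of the peaks next to other kept peaks within 10 kb. The neighbouring peaks that were no sites had a median smallest difference of -0.14, against -0.19 beside other kept peaks, and 29.5% of them were above 0, against 16.1%. Being no site limits this difference, so that nothing is read from it. Runs of sites less than 100 kb apart numbered 36 with 2 sites, 5 with 3 and 1 with 4.

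The run with the most sites, 4 between 130244302 and 130314815 on chromosome 10, lay around Neurod4. Besides the site described above, another site 20.3 kb from Neurod4 (chr10:130259484-130259925) had 2 copies of CAGATG and 4 of CAGCTG in its central 300 bp. It had 5.19, 4.96 and 4.54 in Neurog2 and 4.79, 4.86 and 5.11 in Neurog2+Hmgb2, against 3.99, 3.77 and 4.03 in Control libraries of EGF+bFGF culture, and 4.30, 4.41 and 5.15 in Neurog2 and 4.60, 5.06 and 4.94 in Neurog2+Hmgb2, against 3.87, 3.64 and 4.06 in Control libraries of bFGF culture. The outer sites of the run, nearest to the olfactory receptor gene Olfr827 and to Tespa1, had smallest differences of 0.70 and 0.53. Each of the 4 sites held at least 1 copy of CAGATG.

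Among genes of neurogenesis, few had such a site. Of 46 proneural and neurogenic transcription factors, 4 were nearest to a site, namely Neurod4, the related bHLH gene Nhlh1, Sox11 and Bcl11a, with 5 sites (0.687% of the sites, against 0.484% of kept peaks and 0.528% of those outside promoters). Of 10 core neurogenic genes that the study named, 4 were, namely Neurod4, Sox11, the reelin receptor gene Lrp8 and the guidance gene Slit1, with 6 sites (0.824%, against 0.149% and 0.173%). The study named these genes from its own results in such cultures, so that the list is not independent evidence. Of 21 Notch pathway genes, Dll1, a ligand, and Rbpj, the nuclear mediator, were nearest to 3 sites (0.412%, against 0.232% and 0.246%).

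At the Dll1 sites the smallest differences were 0.56 and 0.53. The one at 32.3 kb (chr17:15342977-15343650) had 5.02, 4.92 and 4.88 in Neurog2 and 5.16, 4.95 and 5.17 in Neurog2+Hmgb2, against 4.00, 4.01 and 4.16 in Control libraries of EGF+bFGF culture. In bFGF culture it had 4.92, 5.15 and 5.07 in Neurog2 and 4.92, 4.88 and 5.02 in Neurog2+Hmgb2, against 4.67, 4.17 and 4.30 in Control. The groups with Neurog2 virus did not overlap with Control in either culture. At the other, 127.6 kb away (chr17:15247847-15248416), Neurog2 replicate 2 in bFGF culture had 4.53, within the Control values of 4.55, 4.35 and 4.68.

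Genes of later neuronal functions contributed further sites. Of 56 synapse genes 11 were nearest to 12 sites (1.65%, against 0.618% of kept peaks and 0.747% of those outside promoters), among them the presynaptic adhesion gene Nrxn3, its partner gene Nlgn1, the glutamate receptor genes Gria1 and Grm5, and the vesicle protein genes Sv2b and Sv2c. Of 36 axon guidance genes 8 were nearest to 9 sites (1.24%, against 0.767% and 0.969%), including Robo1, Robo2, Epha3, Epha7, Rgma and Sema6d. Of 47 genes of the neuronal cytoskeleton and migration 7 were nearest to 8 sites (1.1%, against 0.784% and 0.949%), including Dab1, Kif5c and the RNA-binding protein genes Celf2, Celf4 and Rbfox1. Of 38 sodium and potassium channel genes 5 were nearest to 6 sites (0.824%, against 0.44% and 0.518%). Large genes and gene deserts collect more peaks, and these shares were not tested.

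The site near Sv2b had a smallest difference of 0.88, that near the repulsive guidance gene Rgma 0.91, and that in an intron of Sema6d, a semaphorin gene, 0.73.

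In an intron of Scn2a, which encodes a voltage-gated sodium channel, a site 20.0 kb from the start (chr2:65690444-65690994) had 5.20, 5.47 and 4.50 in Neurog2 and 4.89, 5.15 and 5.24 in Neurog2+Hmgb2, against 3.88, 4.12 and 3.61 in Control libraries of EGF+bFGF culture. In bFGF culture it had 4.87, 4.44 and 4.83 in Neurog2 and 4.83, 5.55 and 5.03 in Neurog2+Hmgb2, against 3.79, 4.00 and 4.08 in Control. Neurog2 replicate 3 in EGF+bFGF and replicate 2 in bFGF culture were the lowest of their groups and still above Control. The site in an intron of Kcnip4, which encodes a regulator of potassium channels, had differences of 1.40 for Neurog2 and 1.47 for Neurog2+Hmgb2 in EGF+bFGF culture, and 0.68 and 0.90 in bFGF culture.

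Genes of astrocytes also had sites. Of 32 astrocyte genes 5 were nearest to a site each (0.687%, against 0.46% of kept peaks and 0.551% of those outside promoters), namely Sox9 and Nfib, transcription factors of the glial lineage, the glutamate transporter gene Slc1a3, the hyaluronan receptor gene Cd44 and the matrix gene Tnc. The site 35.7 kb from Sox9 (chr11:112817878-112818814) had 6.01, 6.37 and 5.76 in Neurog2 and 5.55, 5.98 and 6.09 in Neurog2+Hmgb2, against 4.69, 5.12 and 5.17 in Control libraries of EGF+bFGF culture. In bFGF culture it had 5.55, 5.57 and 5.41 in Neurog2 and 5.81, 5.79 and 5.39 in Neurog2+Hmgb2, against 4.57, 4.57 and 4.92 in Control. Each library with Neurog2 virus lay above each Control library of its culture, at a gene that is itself a marker of astrocytes. The Sox9 site held CAGATG outside the central 300 bp only, as did the site 35.2 kb from Cd44, which had a smallest difference of 0.78.

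The lists of other cell types and of the cell cycle held at most 1 site each. Oligodendrocyte lineage genes (12 of 17 nearest to a peak), microglia and immune genes (7 of 17) and cell cycle genes (28 of 29) had 0 sites, where 0.0876%, 0.057% and 0.193% of kept peaks belonged to them. With shares this small few sites could be found, so that nothing is read from the counts of 0. Of 18 endothelial and mural genes Emcn had 1 site (0.137%, against 0.134% of kept peaks), 230.3 kb away with a smallest difference of 0.54. Of 16 fibroblast and meningeal genes Col6a2 had 1 (0.137%, against 0.153%), at 45.0 kb with 0.53. At the Emcn site the levels were among the lowest named, with 3.51 to 4.51 in libraries with Neurog2 virus, against 3.04 to 3.34 in Control.

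Sites just inside the limit and peaks just outside it had nearly the same values. Just inside lay sites in introns of Nek11 and Frmd5, each with a smallest difference of 0.50. Just outside lay peaks in an intron of Itgav, 75.4 kb from Nfkbiz and 9.3 kb from Gpat3, also with 0.50 after rounding. In the Nek11 site Neurog2 replicate 2 in bFGF culture had 3.48, below the 3.57 and 3.64 of Control replicates 1 and 2. The count depended on the limit: 1213 peaks passed at 0.4 and 386 at 0.6.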

How the data were processed

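ATAC-seq was measured in 25 libraries of 8 groups. As stated in the study's methods and the labels, the authors checked reads with FastQC, trimmed them with Cutadapt, mapped them to mm10 with Bowtie2, called peaks per sample with Genrich in ATAC mode without mitochondrial reads and duplicates, merged the peaks and counted reads per peak. The authors deposited DESeq2 rlog values (log2 scale, scaled to library size), which hold no depth. Peak starts count from 0 in the deposited table and are printed from 1.

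Here all 45672 peaks were fitted with limma 3.58.1 in R 4.3.3 (8 group means, mean trend, Benjamini-Hochberg over all peaks), after a test of the code on simulated data. Peaks were placed on GRCm38.p6 with its gene annotation. Those sharing the coding sequence of Neurog2 or Hmgb2 were found with blastn 2.17.0+ at an E-value of 1e-10. Motifs were counted in the central 300 bp, for which 106 peaks without a reference chromosome were not searched.

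The sites and gene lists were chosen with earlier results of these data known. Named were the 12 sites with the largest smallest-of-4 difference (1 per nearest coding gene), up to 2 per gene list, 3 on either side of the limit, 4 with the smallest p between the Hmgb2 groups, and the run with the most sites. Some sites that this rule named are not reported here. Between libraries with the same replicate number, the correlations of deviations ran from -0.277 to 0.465. In bFGF culture all 3 were positive for Neurog2 and Control (0.218, 0.301 and 0.234). They were also positive for Hmgb2 and Control in bFGF culture (0.083, 0.397 and 0.337). Whether the libraries of these groups are paired is not stated. Alternatives were the limit, group medians, 2 scalings, the groups in the fit, the trend, a filter on mean values, the replicate block, window width and leaving out libraries. Those on left-out Neurog2 libraries, libraries with Neurog2 signal and named sites were added after the data were seen.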

Additional observations from a re-analysis of the deposited data

How the results depend on the processing

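The number of sites was 1213 at a limit of 0.4, 386 at 0.6, and 567 to 912 with a library left out (567 without Neurog2 replicate 3 of bFGF culture, with 547 of the 728 sites among them, and 912 without its replicate 2, with 669). It was 752 with group medians (559 shared), 757 with libraries shifted to the same median (695 shared), 695 with quantile normalization (667 shared) and 809 without the Hmgb2 and Control libraries with Neurog2 signal (696 shared). The share of sites with CAGATG was 92.3% in the whole peak, 58.1% in the central 150 bp, 78.2% at a limit of 0.4, 78.2% with group medians, and 77.3% to 82.8% with a library left out, the lowest without Neurog2 replicate 2 of bFGF culture.

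The median differences were -0.07 to 0.04 for Hmgb2 minus Control in EGF+bFGF culture, 0.06 to 0.14 in bFGF culture and -0.14 to -0.05 between the Hmgb2 groups of the 2 cultures, so that only the first changed sign. The 3 counts of sites called in Hmgb2 comparisons were 0 under each alternative run, the replicate block included. With the replicate block, 221 sites were called for Neurog2+Hmgb2 in EGF+bFGF culture and 48 for Neurog2 in bFGF culture, as without it. These groups and their Controls hold the same replicate numbers, so that the block cannot change their differences. The equal counts thus show little about pairing. Of 34 named sites, 28 still met the rule with group medians and 29 to 34 with a library left out. A filter at a mean of 4 kept 32022 peaks and 514 sites. Without counts, the depth behind a value is unknown, and rlog pulls weak peaks together. The cause of these shifts was not tested.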
